A study of Mus musculus with 16 samples.

Results

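The constitutive proteasome subunits are 34 mouse genes, Psma1 to Psma7, Psmb1 to Psmb7, Psmc1 to Psmc6 and Psmd1 to Psmd14. They were taken by symbol from the array design, which names 27845 genes in all, and all 34 were found. The design holds 50 probes for them, and 14 genes have several, so each gene was followed through its brightest probe by the mean over all 16 arrays. Every one of these 34 probes lay well above background on all 16 arrays, so no member was lost to the filter on dim probes.

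The proteasome is the large protease that degrades proteins tagged with ubiquitin. Its core particle is a barrel of outer alpha rings, which gate the entrance, and inner beta rings, in which Psmb5, Psmb6 and Psmb7 carry the chymotrypsin-like, caspase-like and trypsin-like sites. A regulatory particle caps the barrel. Its base holds the ATPases Psmc1 to Psmc6, which unfold substrates, with the scaffolds Psmd1 and Psmd2 and the ubiquitin receptor Psmd4, and its lid includes the deubiquitinase Psmd14. Psmd5, Psmd9 and Psmd10 are chaperones that help to assemble the base and are not part of the finished particle. In cells exposed to interferon-gamma, Psmb8, Psmb9 and Psmb10 take the places of Psmb5, Psmb6 and Psmb7 and form the immunoproteasome.

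The samples came from female C57Bl/6 mice with acute hepatitis, brought on by the T cell mitogen concanavalin A. Every mouse received 300 µg of it, and no mouse without it was measured. Treated mice were also given 100000 stem cells into the tail vein, grown from the inguinal fat of C57Bl/6 mice, and tissue was taken 2 h after the cells. The 6 groups were 3 livers at 2 h after concanavalin A alone, 3 livers at 2 h with stem cells given at once, 3 livers at 5 h after concanavalin A alone, 3 livers at 5 h with stem cells given at 3 h, and inflammatory cells recovered from the liver at 5 h, 2 samples without and 2 with stem cells given at 3 h. The age of the mice, and how the inflammatory cells were isolated, are not given in the sources used here. For the 2 samples of inflammatory cells used as untreated, the source label mentions stem cells while the treatment and description labels do not. No label states that the inflammatory cells of each sample were of a separate mouse, so p-values there measure the spread between these samples, which may be technical.

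RefSeq windows around the start of the gene (GRCm38.p6, 250 bases before it and 50 after) were at hand for 28 of the 34 members, in 30 windows. The stretches before the start are shown for Psma5, Psmd12 and Psmc2, which rose with time in the liver, and for the catalytic Psmb5, which did not pass that test. All are written 5′ to 3′ on the strand of the gene. Capitals mark CGGAAG, the core of binding sites of ETS factors, and TGACNNNGC, the core of the antioxidant response element, on either strand.
Psma5, chr3:108256676-108256925, plus strand: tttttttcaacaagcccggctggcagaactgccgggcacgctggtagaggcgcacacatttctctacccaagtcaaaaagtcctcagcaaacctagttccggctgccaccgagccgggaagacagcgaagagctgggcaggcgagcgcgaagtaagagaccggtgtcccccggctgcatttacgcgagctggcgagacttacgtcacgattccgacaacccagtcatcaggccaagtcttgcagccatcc
Psmd12, chr11:107479278-107479527, plus strand: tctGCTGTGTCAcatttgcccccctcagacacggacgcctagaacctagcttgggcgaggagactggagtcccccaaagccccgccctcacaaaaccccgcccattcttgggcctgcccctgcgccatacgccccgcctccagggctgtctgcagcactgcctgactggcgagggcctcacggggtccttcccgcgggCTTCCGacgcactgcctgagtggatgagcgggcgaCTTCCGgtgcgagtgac
Psmc2, chr5:21785025-21785274, plus strand: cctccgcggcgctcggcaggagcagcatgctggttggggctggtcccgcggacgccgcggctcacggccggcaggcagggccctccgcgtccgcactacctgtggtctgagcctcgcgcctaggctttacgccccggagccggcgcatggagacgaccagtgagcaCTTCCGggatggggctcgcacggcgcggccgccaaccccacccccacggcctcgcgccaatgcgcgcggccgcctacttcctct
Psmb5, chr14:54617996-54618245, minus strand: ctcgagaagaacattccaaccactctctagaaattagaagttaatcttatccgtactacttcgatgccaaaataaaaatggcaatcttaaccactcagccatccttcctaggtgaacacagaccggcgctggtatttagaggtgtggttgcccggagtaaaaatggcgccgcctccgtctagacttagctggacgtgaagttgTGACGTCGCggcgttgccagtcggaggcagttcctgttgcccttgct

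Psmd12 held CGGAAG on the opposite strand at positions -52 to -47 and -17 to -12, counted from 0 at the first base after the start, and TGACNNNGC at -247 to -239. Psmc2 has 2 windows: the first, shown, held CGGAAG at -84 to -79, and the second, not shown, held it at -24 to -19 and at 9 to 14. Psmb5 held TGACNNNGC at -47 to -39, and the stretch of Psma5 held neither set of letters. Over the whole windows, CGGAAG was present in 17 of 28 members (60.7%) and in 18.8% of the 27025 genes with a window. GGGCGG, the GC box, was present in 64.3% of members and 38.2% of all genes, in windows whose median content of G and C was 55.8% and 52.7%. The remaining motifs were closer to the rate of all genes: TGACNNNGC was in 17.9% against 14.0%, CCAAT in 39.3% against 41.1% and TATAAA in 10.7% against 15.7%. Both strands were searched, and GGGCGG and CGGAAG can share bases. A match describes letters in a window and is not a binding site.

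All levels below are log2 probe signal minus the 75th percentile of the same array, so 0 is the array's own 75th percentile and levels of different genes are not compared. The probe of Psma5 lies at chr3:108407892-108407951 of build mm8, that of Psmd12 at chr11:107313739-107313798, that of Psmd5 at chr2:34674597-34674656, that of Psmd10 at chrX:136295572-136295631 and that of Psmd7 at chr8:110469631-110469690. No annotation of that build was used, so the exon or UTR under a probe is not given. The share of spots well above background was 52.1% to 62.5% per array, 0 spots were saturated, and the small number of arrays limits the precision. The summed signal of 10 hepatocyte markers was 2808 to 4498 times the 75th percentile in livers and 61.6 to 286 times in inflammatory cells. That of 9 T cell markers was 1.71 to 2.27 in livers and 45.3 to 76.6 in inflammatory cells. The largest sum in inflammatory cells was that of 5 erythroid markers, 2055 to 4374, against 203 to 704 in livers. Neutrophil markers (9) were at 138 to 663 against 14.7 to 241 in livers, and B cell markers (5) at 118 to 217 against 1.63 to 5.79. Of those T cell markers, Cd28 lay below background on every liver array at 2 h without stem cells, and Cd28 and Cd8a on every one at 2 h with them. All 4 arrays of inflammatory cells shared 1 slide that held no liver, so tissue and slide cannot be told apart. Each of the 3 liver slides held 1 array of each liver group. At both tissues the position on the slide followed the groups: positions 1 and 2 held livers at 2 h and cells without stem cells, and positions 3 and 4 held livers at 5 h and cells with stem cells. At 2 h every liver without stem cells was at position 1 and every liver with them at position 2. Position therefore cannot be told apart from time in the liver, nor from stem cells in livers at 2 h and in inflammatory cells.

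The 34 genes varied little among livers. The median SD of a member over the 12 livers was 0.18, against 0.44 for all genes. All genes include dimmer probes, kept when well above background on as few as 2 of 16 arrays. SD was not compared at a matched signal. Among members it ran from 0.11 for Psmc6, an ATPase, to 0.40 for Psma5 of the alpha ring. Over the 4 samples of inflammatory cells the median SD of members was 0.44, close to the 0.49 of all genes. In 32 of 34 members the SD was smaller in livers than in inflammatory cells, the exceptions being the lid subunit Psmd13 and the chaperone Psmd10. The median member stood 0.42 below its own liver mean in the inflammatory cells of mouse 983 and 0.86 below in those of mouse 985. With stem cells it stood 1.33 below in mouse 987 and 1.27 below in mouse 989. No member was above its liver mean in either sample with stem cells. RNA was measured in bulk, where fewer cells of a type and less RNA per cell cannot be told apart.

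**Figure D1:**
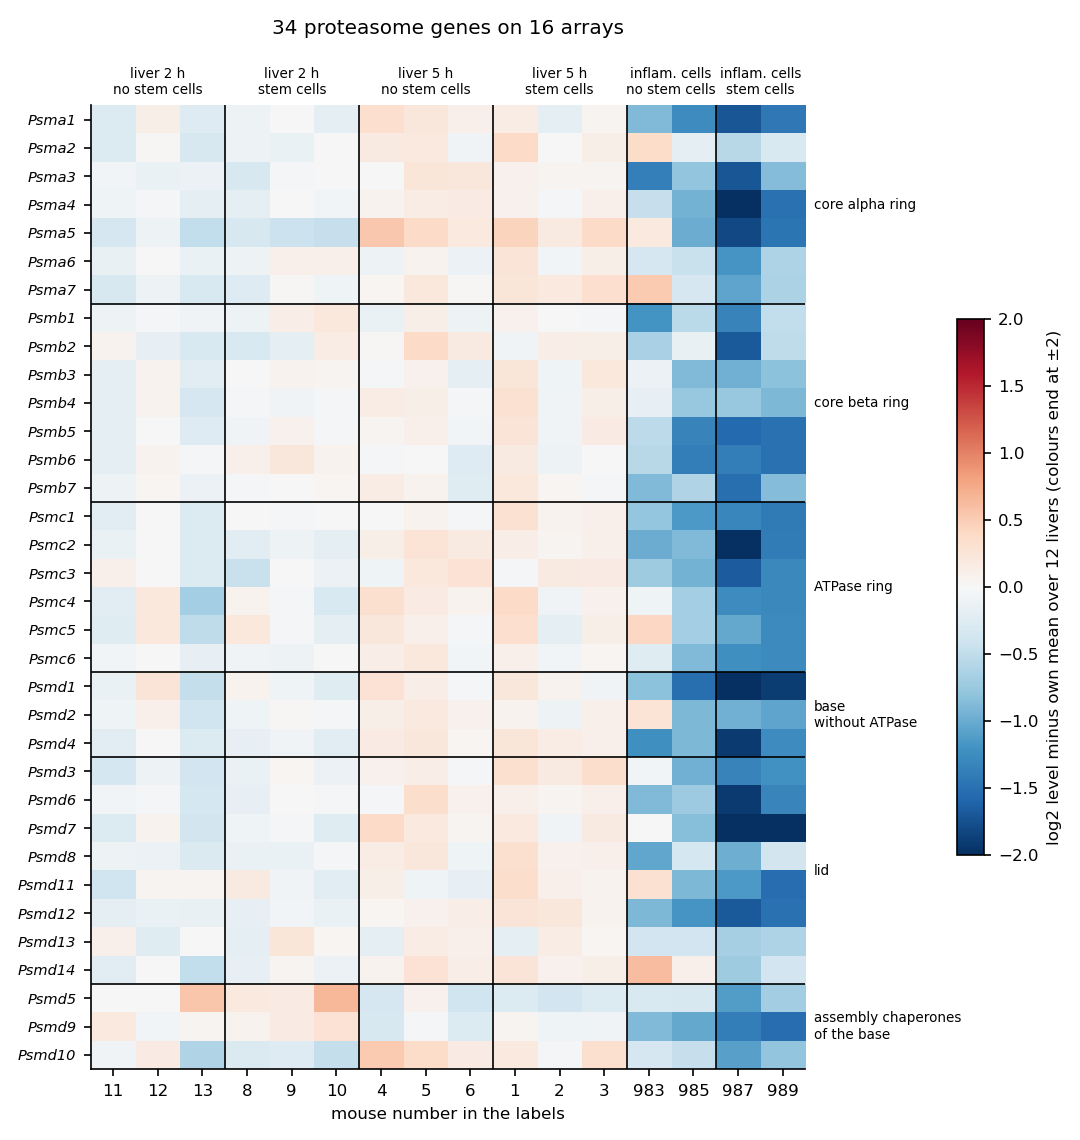
Heat map of the 34 genes (rows, by role) on 16 arrays (columns, by group and mouse number), with colour for the log2 level minus the gene's own mean over the 12 livers. Livers stay near 0, and the columns of mice 987 and 989 are below 0 for all 34 genes.

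From 2 h to 5 h after concanavalin A, Psma5 rose in the liver without stem cells and again with them. It was the only member past the threshold in either comparison, where 12.6% and 15.8% of all genes passed. Averaged over both treatments, 8 of the 34 members rose, where 13.9% of all genes did. The chaperone Psmd5 was the 1 member that fell, where 17.7% of all genes did, and 31.7% of all genes passed in either direction. The rises of the 8 members were small: 1.64-fold for Psma5 and between 1.21-fold and 1.43-fold for the other 7. None of the 7 genes of the core beta ring, catalytic or not, passed the test. The 3 inducible subunits of the immunoproteasome rose 2.08-fold to 2.58-fold in the same livers.

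Psma5, a subunit of the alpha ring, had levels of 4.53, 4.76 and 4.36 at 2 h without stem cells and of 5.40, 5.25 and 5.06 at 5 h. With stem cells its levels were 4.53, 4.43 and 4.40 at 2 h and 5.30, 5.05 and 5.23 at 5 h. Every liver at 5 h was above every liver at 2 h, by at least the distance between 4.76 and 5.05. The log2 change was 0.68 ± 0.15 (SE) without stem cells (limma, adjusted p = 0.0178), 0.74 ± 0.15 with them (adjusted p = 0.0102) and 0.71 ± 0.11 (SE, adjusted p = 0.00101) over both. Within each slide it was 0.64, 0.72 and 0.69 without stem cells and 0.77, 0.84 and 0.61 with them. The call without stem cells was lost when mouse 13 (adjusted p = 0.0502) or mouse 4 (adjusted p = 0.0684) was left out, and under no filter on dim probes (0.0527), normexp background correction (0.305) or a fit of the groups compared alone (0.103), while the call over both treatments held in all 12 fits that left out 1 liver.

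In the livers without stem cells, 1 of 34 members rose, where 5.25% of all 17150 genes tested did, and 0 fell, where 7.34% of all genes did. At an unadjusted p under 0.05 there were 10 members (29.4%), a share near the 29.9% of all genes. The levels of 11 members did not overlap between the times and were higher at 5 h, where 14.8% of all genes did the same, and for 0 members were they apart and lower (19.3% of all genes). The median change of the members was 0.25, with 31 of 34 above 0, against -0.06 over all genes, of which 45.2% were above 0. With stem cells 1 of 34 rose (7.9% of all genes) and 0 fell (7.87%). Levels of 13 were apart and higher (17.9%) and of 2 apart and lower (22.1%). The median change with stem cells was 0.16, with 29 above 0, against -0.06 over all genes, of which 44.3% were above 0. Within single slides the median of the members ran from 0.09 to 0.32 without stem cells and from 0.04 to 0.29 with them, each time above the median of all genes on that slide.

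Over both treatments 8 of 34 members rose, where 13.9% of all genes did, and 1 fell, where 17.7% of all genes did. All 6 livers at 5 h were above all 6 at 2 h for 6 members (7.2% of all genes) and below them for 0 (7.76%). The 6 were Psma5, Psma7, Psmc2, Psmd4, Psmd12 and Psmd14. At an unadjusted p under 0.05 there were 15 (44.1%), against 43.0% of all genes. With the slide as a block 10 rose and 1 fell, where 32.9% of all genes passed. The count depended on the processing: it was 9 in all as given here, where 31.7% of all genes passed, and 4 with no filter on dim probes (15.2% of all genes). It was 5 without mice 10 and 13 (27.8%), and 1, Psma5, with normexp background correction (11.3%).

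Among the alpha ring, Psma7 rose as well, by 0.35 ± 0.09 (SE, adjusted p = 0.0152), and the values of all 7 genes of the ring were above 0, with a median of 0.23. Of the 6 ATPases, Psmc2 alone passed, at 0.29 ± 0.08 (adjusted p = 0.0239), and the median of the ring was 0.22. The ubiquitin receptor Psmd4 passed at 0.31 ± 0.09 (adjusted p = 0.0225), while the scaffolds Psmd1 and Psmd2 had changes of 0.20 and 0.16 that did not. In the lid, Psmd3, Psmd12 and Psmd14 rose by 0.35, 0.27 and 0.32 of 8 genes whose median was 0.27. The call of Psmd14, the deubiquitinase, was the least firm (adjusted p = 0.042) and held in 2 of 12 fits that left out 1 liver. Those of Psma7 and Psmd3 held in all 12, that of Psmd4 in 11 and that of Psmc2 in 9. Under 10 other settings the call held in 9 for Psmd3, 8 for Psma7, 6 for Psmd4, 5 for Psmc2 and 3 for Psmd14. The mean of its probes was among the settings that lost Psmc2.

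Psmd12, a lid subunit, showed how narrow these shifts were. Its levels were 5.25, 5.31 and 5.28 at 2 h without stem cells and 5.27, 5.38 and 5.30 with them. At 5 h they were 5.48, 5.53 and 5.57 without and 5.70, 5.66 and 5.51 with stem cells. No liver at 5 h was as low as any at 2 h. The change over both treatments was 0.27 ± 0.08 (SE, limma adjusted p = 0.0229), a 1.21-fold rise. The call was lost without mouse 8, 6, 1 or 2, and it held under 6 of 10 other settings. Those that lost it were the 75th percentile over probes above background, no filter, normexp background correction and quantile normalization.

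The chaperones of the base did not move together. Psmd10, also known as gankyrin, had levels of 0.41, 0.64 and -0.13 at 2 h and 1.01, 0.85 and 0.65 at 5 h without stem cells, and of 0.18, 0.22 and 0.01 against 0.68, 0.44 and 0.80 with them. The times did not overlap within either treatment, and Psmd10 rose by 0.51 ± 0.14 (SE, adjusted p = 0.0205). The call was lost without mouse 3 (adjusted p = 0.0507) and with normexp background correction (limma adjusted p = 0.124).

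Psmd5 moved the other way. Its levels were 0.88, 0.89 and 1.45 at 2 h and 0.55, 0.98 and 0.50 at 5 h without stem cells, and 1.09, 1.05 and 1.56 against 0.62, 0.50 and 0.61 with them. The highest values at 2 h were those of mice 13 and 10, and mouse 5 at 5 h lay above 2 livers at 2 h. Psmd5 fell by 0.53 ± 0.15 on the log2 scale over both treatments (limma, adjusted p = 0.0213). Without mice 10 and 13 the change was -0.35 (adjusted p = 0.0511), and without mouse 6 it was -0.48 (adjusted p = 0.0534). With normexp background correction it was -0.39 (limma adjusted p = 0.243). Psmd9, the remaining chaperone, had a change of -0.24 ± 0.09 that did not pass (adjusted p = 0.0755).

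In the beta ring the median change was 0.08, and 0 of 7 genes passed by limma, with 0 also at an unadjusted p under 0.05. Psmb5 had levels of 4.33, 4.54 and 4.28 at 2 h and 4.58, 4.64 and 4.49 at 5 h without stem cells, and of 4.46, 4.62 and 4.52 against 4.79, 4.47 and 4.70 with them. The times overlapped in both treatments. The changes over both were 0.16 ± 0.09 for Psmb5, -0.08 ± 0.10 for Psmb6 and 0.07 ± 0.10 for Psmb7 (adjusted p of 0.239, 0.566 and 0.626). The sign of Psmb6 turned with normexp background correction and that of Psmb7 with quantile normalization.

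**Figure D2:**
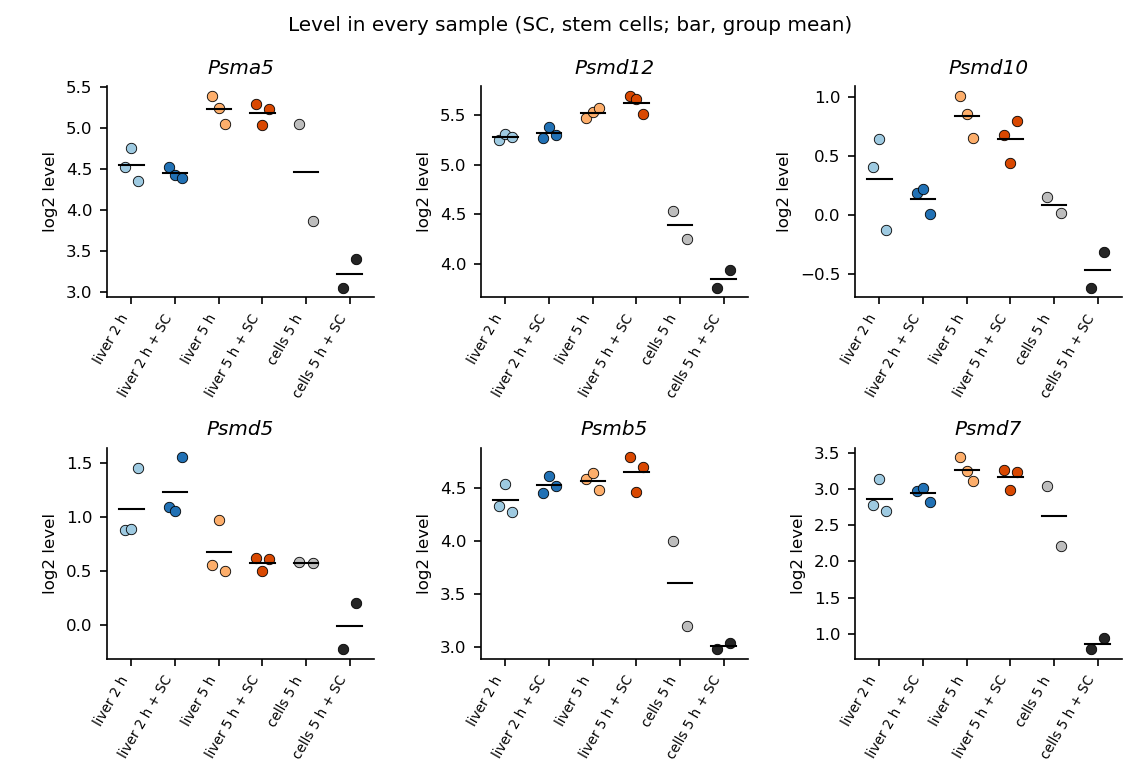
Log2 level of 6 members in each of the 16 samples (points; the bar is the group mean), grouped by tissue, time and stem cells. Psma5 and Psmd12 are higher in every liver at 5 h than in any at 2 h, and Psmd7 is lowest in the 2 samples of inflammatory cells with stem cells, at 0.79 and 0.94.

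**Figure D3:**
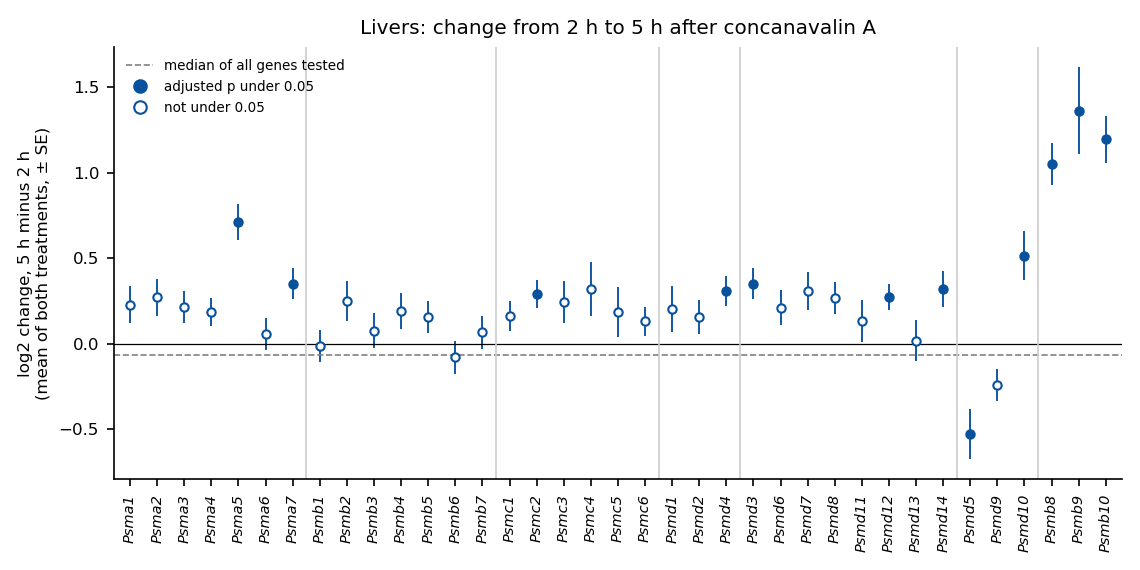
Log2 change from 2 h to 5 h in the livers, averaged over both treatments, with its SE, for the 34 members by role and for Psmb8, Psmb9 and Psmb10 at the right. Filled points passed the adjusted p of 0.05. The dashed line is the median of all genes, -0.06, and 30 of the 34 members lie above 0, where 44.4% of all genes do.

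The other genes of the pathway differed in how many passed. Over both treatments 3 of 3 immunoproteasome genes rose, Psmb9 by 1.37 ± 0.26, Psmb10 by 1.20 ± 0.14 and Psmb8 by 1.05 ± 0.12 (limma, adjusted p of 0.00343, 0.00031 and 0.00032). Of 5 activators and inhibitors 3 rose: Psme1 and Psme2, which form the interferon-induced cap, by 0.39 and 0.48, and Psme3, a nuclear cap, by 1.41. The deubiquitinase Usp14 rose by 0.49, as 1 of 5 attached proteins tested, and the shuttle Ubqln1 by 0.31, as 1 of 5 shuttles. None of 4 core assembly genes, 5 regulators or 5 ubiquitin genes passed, and none of these 14 had an unadjusted p under 0.05. Nfe2l1, the transcription factor that raises proteasome genes when the protease is blocked, changed by -0.08 ± 0.12.

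Markers of other cell types moved with time in the same livers. All 9 neutrophil markers rose over both treatments, with a median change of 1.82, as did 4 of 5 erythroid and 1 of 8 macrophage markers, while 4 of 7 endothelial, 4 of 5 B cell and 3 of 7 mesenchymal markers fell. The summed signal of the neutrophil markers was 14.7 to 101 times the 75th percentile at 2 h and 143 to 241 at 5 h. That of the macrophage markers was 45.6 to 76.5 at 2 h and 107 to 118 at 5 h, but the list did not move together. Without stem cells 6 of the 8 macrophage markers had a change below 0 (median -0.16, highest 2.83). With stem cells 6 of the 8 were above 0 (median 0.22, highest 2.90). Every marker on those 2 lists was above background on at least 1 array of each group. Their part in the changes of the proteasome genes was not tested.

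The immunoproteasome subunits were also followed against the catalytic subunits they replace, as the difference of both probes within an array. The value of such a difference sets probe against probe and is not read, but its change between groups is. Psmb8 minus Psmb5 was -0.59, -0.71 and -0.80 in livers at 2 h without stem cells and 0.43, -0.01 and 0.17 at 5 h. With stem cells it was -1.31, -1.44 and -0.99 at 2 h and -0.46, -0.32 and -0.26 at 5 h. Within both treatments every liver at 5 h was above every liver at 2 h.

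Over both treatments the difference grew by 0.90 for Psmb8 against Psmb5, by 1.44 for Psmb9 against Psmb6 and by 1.13 for Psmb10 against Psmb7. For each of the 3 pairs the exact permutation test within treatments gave p = 0.005 (2-sided), the smallest it can give, and 0.0338 after Benjamini-Hochberg adjustment over 27 relations. At a single time, 3 livers against 3 cannot give an exact p below 0.1. Psmb8 minus Psmb5 was lower by 0.55 with stem cells at 2 h and by 0.54 at 5 h (exact permutation p = 0.1 for both), and the groups did not overlap at either time. The same value for Psmb9 minus Psmb6 was -0.88 at 2 h (exact p = 0.3) and -0.80 at 5 h (exact p = 0.1). For Psmb10 minus Psmb7 it was -0.52 at 2 h (exact p = 0.1) and -0.13 at 5 h (exact p = 0.5), where the groups overlapped.

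A test over both times, with stem cells permuted within times, was added after seeing the data. By it Psmb8 minus Psmb5 changed by -0.54 with stem cells (exact permutation p = 0.005, 2-sided, adjusted p = 0.0338 over the 27 relations), and the exact p stayed at or below 0.01 in all 12 repeats that left out 1 liver. The value of Psmb9 minus Psmb6 was -0.84 (exact p = 0.015, adjusted p = 0.081) and that of Psmb10 minus Psmb7 -0.32 (exact p = 0.035, adjusted p = 0.135), and neither passed after adjustment.

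In inflammatory cells Psmb8 minus Psmb5 was 1.00 and 1.53 without stem cells and 1.87 and 2.22 with them, and these 4 values were the highest of the 16. Against liver at 5 h the difference was larger by 1.07 without and by 2.39 with stem cells (exact permutation p = 0.1 for both, the smallest possible). Psmb9 minus Psmb6 was larger by 0.76 without stem cells, and no group overlapped in either comparison (exact p = 0.1 for both). Psmb10 minus Psmb7 was -0.63 and -0.03 away from liver, with groups that overlapped (exact p of 0.2 and 0.9).

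**Figure D4:**
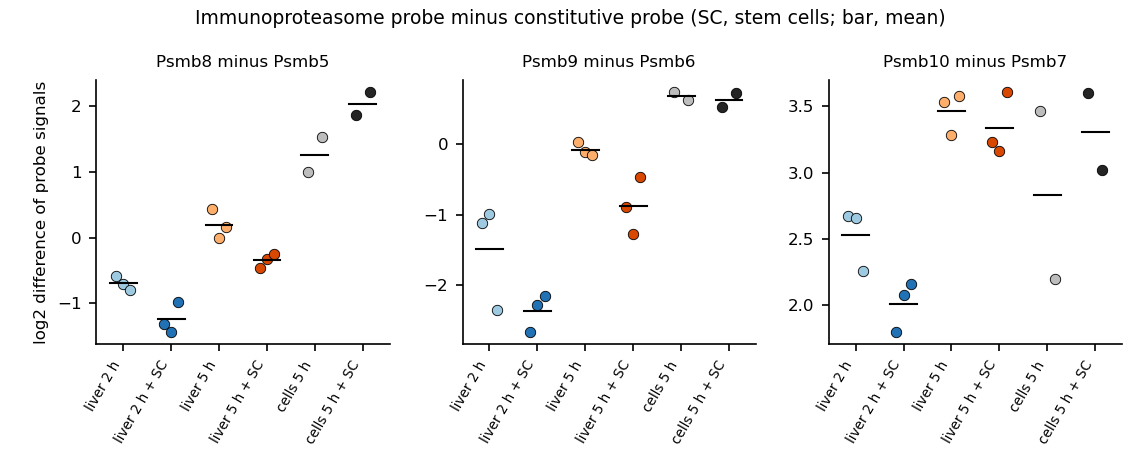
Difference of the log2 signals of an immunoproteasome probe and of the constitutive probe it stands for, within each array (points; the bar is the group mean), for 3 pairs and 6 groups. All 3 differences are higher at 5 h than at 2 h within each liver treatment, and the 4 samples of inflammatory cells are highest for Psmb8 minus Psmb5 and for Psmb9 minus Psmb6.

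No member passed the test for stem cells in the liver. At 2 h 0 of 34 passed by limma, where 0.00583% of all genes were higher, 0.0175% lower and 0.0233% either, and 0 had an unadjusted p under 0.05 (6.03% of all genes). The median change was 0.08, with 29 of 34 above 0, close to the median of all genes, 0.08. Of all genes, 61.4% were above 0. At 5 h 0 of 34 passed, where 0.0175% of all genes were higher, 0.0117% lower and 0.0292% either, again with 0 at an unadjusted p under 0.05 (12.0% of all genes). The median was then -0.01, with 16 of 34 above 0, against a median of 0.08 over all genes, of which 60.1% were above 0. The smallest p at both times was that of the lid subunit Psmd3, with levels of 5.87, 6.12 and 5.84 without and 6.09, 6.26 and 6.11 with stem cells at 2 h, and of 6.31, 6.36 and 6.21 without and 6.54, 6.40 and 6.57 with them at 5 h. The groups overlapped at 2 h and were apart at 5 h, where the change was 0.21 ± 0.13 (SE, adjusted p = 0.521).

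The catalytic subunits had values of 0.15 ± 0.13 (Psmb5), 0.19 ± 0.14 (Psmb6) and 0.06 ± 0.14 (Psmb7) with stem cells at 2 h, and of 0.08, 0.12 and 0.08 at 5 h. Psmb6 at 2 h was the only member whose groups were apart there (4.91% of all genes were apart and higher, 3.62% apart and lower). Its levels were 5.18, 5.45 and 5.34 without and 5.48, 5.60 and 5.45 with stem cells. The nearest values, 5.453 for mouse 12 without and 5.454 for mouse 10 with stem cells, were all but equal. At 5 h Psmd3 was the only member apart (12.5% of all genes were apart and higher, 8.92% apart and lower). The remaining members with the smallest p were Psmc1 (0.15) and Psmd14 (0.17) at 2 h, and Psma1 (-0.21), Psmd9 (0.18), Psma7 (0.17) and Psmd11 (0.22) at 5 h, none with an adjusted p under 0.5. Slides differed in sign: the median of the members at 2 h was -0.11, 0.08 and 0.24 on the 3 slides. With normexp background correction the median at 2 h turned to -0.34, with 33 of 34 below 0 and 0 past the threshold, so the direction of these small values depended on the processing.

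For no member did the test of the stem cell effect at 5 h against that at 2 h pass. By limma 0 of 34 passed, where 0.00583% of all genes did, with 0 at an unadjusted p under 0.05 (4.36% of all genes) and a median difference of -0.06. The values ran from -0.26 for Psmd5 to 0.16 for Psmd11, and those of Psmb5, Psmb6 and Psmb7 were -0.06, -0.07 and 0.02. Besides Psmd5, the members with the smallest p were Psma1 (-0.25), Psmd2 (-0.20), Psmd14 (-0.18) and Psmd7 (-0.18). For the immunoproteasome genes the stem cell values were -0.40, -0.69 and -0.45 at 2 h (Psmb8, Psmb9 and Psmb10) and -0.46, -0.67 and -0.05 at 5 h. None passed (lowest adjusted p 0.826 and 0.357), though 2 of 3 at 2 h and 1 of 3 at 5 h had an unadjusted p under 0.05.

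Inflammatory cells had lower signals of most proteasome genes than liver at 5 h, relative to each array's 75th percentile. Without stem cells 22 of 34 members were lower, where 28.9% of all 19821 genes tested were, and 0 were higher, where 29.8% were (58.7% either). Apart from all livers and lower were 26 members (36.2% of all genes), and 0 apart and higher (36.8%). The median change was -0.74 (all genes 0.05). With stem cells 33 of 34 were lower, where 32.4% of all genes were, 0 were higher (29.5% of all genes, 61.9% either), 34 were apart and lower (39.9%) and 0 apart and higher (36.5%), and the median was -1.38 (all genes -0.14). The member that did not pass was Psmd5, the chaperone, at -0.59 ± 0.24 (limma adjusted p = 0.0524).

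Psmd12 had the smallest p of all members in both. Its levels in inflammatory cells were 4.54 and 4.25 without and 3.76 and 3.94 with stem cells, against liver levels at 5 h of 5.48 to 5.57 and 5.51 to 5.70. All cell samples lay below all livers. Its log2 change was -1.13 ± 0.16 (SE, adjusted p = 4.79e-05) without and -1.77 ± 0.16 (adjusted p = 7.36e-07) with stem cells, a 2.19-fold and a 3.41-fold lower signal.

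By role, without stem cells, 4 of 7 genes of the alpha ring, 5 of 7 of the beta ring, 4 of 6 ATPases, 2 of 3 base subunits without ATPase, 5 of 8 of the lid and 2 of 3 chaperones were lower. Besides Psmd12 and Psmb5 (-0.97), the largest changes among them were those of the scaffold Psmd1 (-1.30), Psma1 (-1.29), Psma3 (-1.23), Psmd4 (-1.21), Psmc2 (-1.13), Psmc1 (-0.97), Psmc3 (-0.97) and Psmd6 (-0.93). The catalytic Psmb5 was lower by -0.97 ± 0.22, Psmb6 by -0.87 ± 0.23 and Psmb7 by -0.74 ± 0.21 (limma, adjusted p of 0.00215, 0.00515 and 0.0084). Singled out after their values were seen, Psma7 and Psma2 showed changes of -0.00080 and -0.0067 and Psmd14 one of 0.20, and none of these passed. The sign for Psmc2 and Psmd4 was the opposite on their second probes, at 0.42 and 0.57, and that for Psmd7 on 1 of its 2 further probes.

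With stem cells, all 7, 7, 6, 3 and 8 genes of the rings, base and lid were lower, and 2 of 3 chaperones. Besides Psmd12 and Psmb5 (-1.65), the largest changes were those of the lid subunit Psmd7 (-2.30 ± 0.24, adjusted p = 3.18e-06), Psmd1 (-2.15), Psma5 (-1.96), Psma4 (-1.81), Psmc2 (-1.80), Psmd4 (-1.75), Psmd6 (-1.70) and Psma1 (-1.58). The catalytic Psmb5, Psmb6 and Psmb7 were lower by -1.65, -1.46 and -1.26 (adjusted p of 2.92e-05, 0.000104 and 0.000182). Both comparisons pass through scaling between tissues and use 1 spread pooled over all 16 arrays. With quantile normalization 10 members passed without stem cells, 7 lower and 3 higher, where 59.4% of all genes passed. With stem cells 20 did, 19 lower and 1 higher, where 63.3% of all genes did, and the medians were -0.27 and -0.66. Without stem cells the count was 8 with normexp background correction (39.5% of all genes), 13 in a fit of the groups compared alone (54.5%) and 15 without mouse 985 (53.9%). On the second probes of Psmc2 and Psmd4 the signs were again the opposite, at 1.17 and 0.66.

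Of the immunoproteasome genes in the same comparison, Psmb8 was at 0.10 ± 0.22 without stem cells and was higher by 0.74 ± 0.22 (SE, adjusted p = 0.0101) with them. Psmb9 was at -0.11 and 0.04, neither past the threshold. Psmb10 was lower in both, by -1.38 and -1.29 (adjusted p of 0.000969 and 0.00147).

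Of the caps and the inhibitor, Psme3, Psme4 and Psmf1 were lower without stem cells, by -1.91, -1.06 and -1.20, and with them, by -2.58, -1.43 and -1.33. Psme1 was higher without stem cells, by 0.57 (adjusted p = 0.0445). Of 4 genes for assembly of the core tested, 0 passed by limma without stem cells, with 2 at an unadjusted p under 0.05, and all 4 were lower with them, Psmg1 by -1.55. Of 5 regulators 3 were lower without stem cells, among them Ddi2, the protease that activates Nfe2l1 (-1.47), and Ngly1, which removes its glycans (-1.32). With stem cells all 5 were lower, Nfe2l2, the antioxidant response factor, by -2.49, Ddi2 by -1.79 and Nfe2l1 by -0.97.

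Within inflammatory cells, stem cells against none, 33 of 34 members had a value below 0, and 0 passed the test. The median change was -0.59, against 0.11 for all 16995 genes tested, of which 56.2% were above 0. By limma 0 of 34 were called, where 0.0118% of all genes were, and 3 had an unadjusted p under 0.05, Psmd7, Psma4 and Psma5, which is 8.82% against 17.5% of all genes. The levels of 27 members were apart and lower with stem cells, where 23.7% of all genes were, and of 0 apart and higher (27.7%). These 27 include 6 of 7 genes of the alpha ring, 6 of 6 ATPases, 3 of 3 further base subunits, 7 of 8 of the lid and 3 of 3 chaperones, but 2 of 7 of the beta ring. The second probes of Psmc2 and Psmd4, both among the 27, gave 0.50 and 0.23, above 0. With 2 samples a group, overlap is easily avoided.

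Psmd7, the lid partner of the deubiquitinase Psmd14, had levels of 3.05 and 2.21 in inflammatory cells without stem cells and of 0.79 and 0.94 with them. Both treated samples were below both untreated ones, and below all 12 livers, which ran from 2.69 to 3.44. The log2 change was -1.77 ± 0.42 (SE, 3.41-fold lower), with an adjusted p of 0.17 by limma. Its 2 further probes gave -0.84 and -2.15, the latter with 1 array missing as an outlier spot.

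Psma5 showed a wider spread, with 5.06 and 3.87 without and 3.06 and 3.40 with stem cells, a change of -1.24 ± 0.49 (adjusted p = 0.273). Psma4 was at 3.42 and 2.94 against 1.87 and 2.39, a change of -1.05 ± 0.39 (adjusted p = 0.26). The other members with the smallest p were Psmd14 at -0.90 ± 0.38 and the ATPase Psmc4 at -0.89 ± 0.38 (adjusted p of 0.295 and 0.3). The catalytic Psmb5, Psmb6 and Psmb7 had values of -0.60, -0.47 and -0.44 (adjusted p of 0.485, 0.585 and 0.587). For the immunoproteasome genes Psmb8, Psmb9 and Psmb10 the values were 0.18, -0.53 and 0.04, none past the threshold.

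The untreated samples also differed from each other. Mouse 983 was above mouse 985 in 25 of 34 members, by 0.44 in the median, while over all genes mouse 983 was the higher in 47.2%. Mouse 987 was below mouse 983 in 33 members and below mouse 985 in 33, by 0.93 and 0.62 in the median. Mouse 989 was below them in 29 and 32 members, by 0.66 and 0.32. Without mouse 985, 2 members passed, where 1792 of 16994 genes did. With normexp background correction 7 passed, where 7.89% of all genes did, and the median of the members was -0.80, where that of all genes was 0.30.

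The median of all genes in this comparison moved with the scaling: it was 0.11 as given, 0.07 with quantile normalization and 0.26 with the 75th percentile taken over probes above background on all arrays, and the members' median stood at -0.59, -0.61 and -0.43. Some cell type markers moved as well. The summed signal of 9 neutrophil markers was 138 to 212 times the 75th percentile without stem cells and 612 to 663 with them. That of 8 macrophage markers was 28.3 to 52.4 and 80.0 to 101, and that of 7 endothelial markers 5.06 to 9.06 and 11.5 to 11.7. Hepatocyte markers overlapped, at 61.6 to 165 and 122 to 286, and so did T cell markers, at 45.3 to 67.7 and 47.4 to 76.6. The sums of B cell, erythroid and mesenchymal markers overlapped too. Only Cd8a among the T cell markers lay below background, on both untreated arrays. Their part in the lower proteasome signals was not tested.

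**Figure D5:**
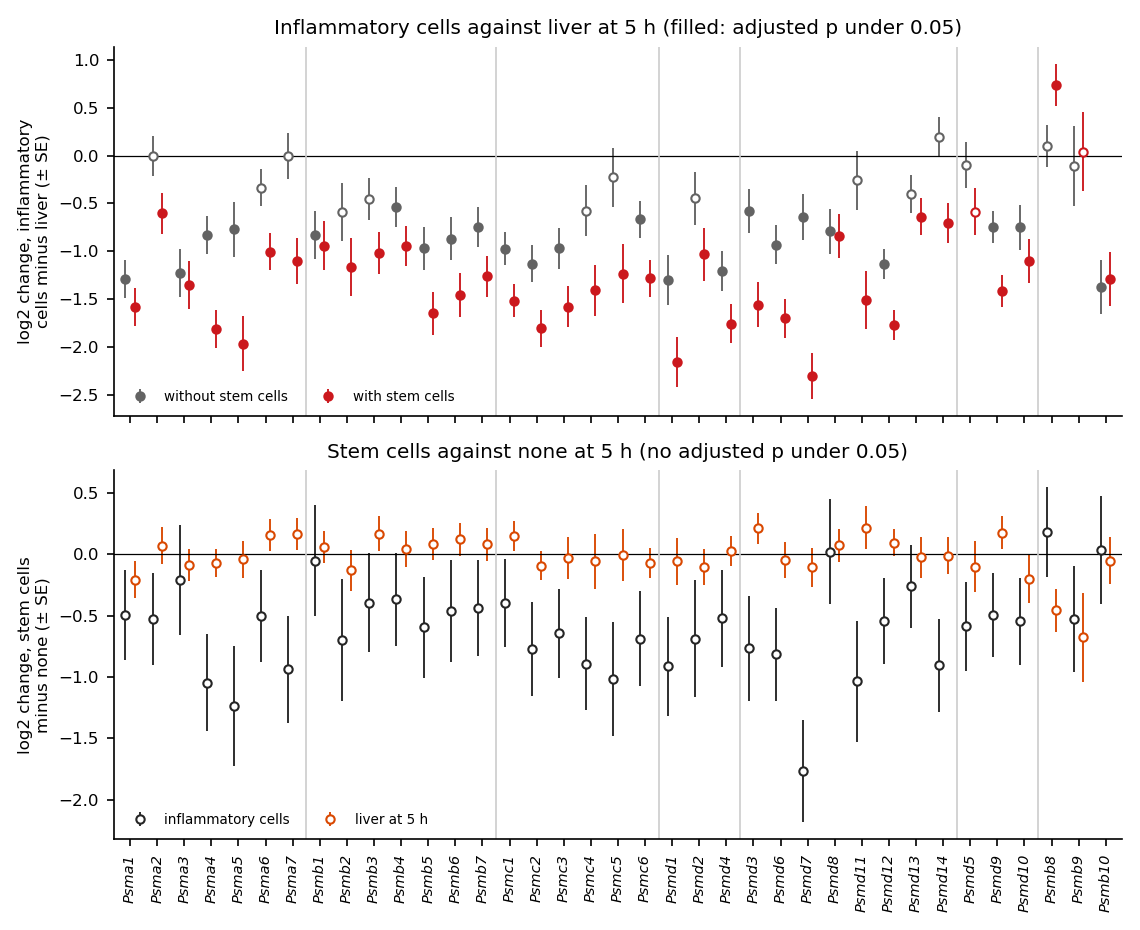
Log2 changes with SE for the 34 members by role and for Psmb8, Psmb9 and Psmb10: inflammatory cells minus liver at 5 h without and with stem cells (top), and stem cells minus none in inflammatory cells and in liver at 5 h (bottom). Filled points passed the adjusted p of 0.05. In the bottom panel no point is filled, and 33 of 34 members lie below 0 in inflammatory cells.

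The stem cell effect in inflammatory cells was set against that in liver at 5 h in 1 fit of all 16 arrays. That fit uses 1 spread for livers and cells together, and 12 of the 16 arrays were livers. The median SD of members was 0.18 over livers and 0.44 over inflammatory cells. The SE of this fit can therefore understate the spread of the cells. The difference was below 0 for all 34 members (31 with quantile normalization, or with the 75th percentile taken over probes above background). Of all genes, 48.7% had a difference above 0. The median of the members was -0.61 (all genes -0.02), and 17 had an unadjusted p under 0.05, where 15.9% of all genes did. On their second probes Psmc2 and Psmd4 had differences above 0, at 0.76 and 0.10. Only Psmd7 passed, where 1.25% of all genes passed in that direction and 1.59% in either. Its difference was -1.66 ± 0.34 (limma, adjusted p = 0.0358), from -1.77 in inflammatory cells and -0.11 in liver. The further probes gave -0.54 and, with 1 array missing, -2.10.

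This call was not firm. It held in 3 of 16 fits that left out 1 array, those without mouse 985, 12 or 13. It was lost with array weights (adjusted p = 0.0517), with no filter on dim probes (0.0668), with the mean of its 3 probes (0.255) and with normexp background correction (0.276). Without mouse 983 the difference was -1.24 (adjusted p = 0.101), and without mouse 985 it was -2.08 (adjusted p = 0.00192), when 14 members passed and 11.4% of all genes did. Next in order were Psma4 (-0.98 ± 0.28, adjusted p = 0.106), Psma7 (-1.10), Psmd14 (-0.90) and Psmd3 (-0.98), and the catalytic Psmb5, Psmb6 and Psmb7 had differences of -0.68, -0.59 and -0.52. This comparison shares its samples with those of inflammatory cells against liver, so they are not independent of each other.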

How the data were processed

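RNA of 12 livers and 4 samples of hepatic inflammatory cells was labelled with Cy3 and hybridised to 1-colour Agilent arrays, 1 per sample. The deposited scanner files hold spot intensity from Agilent Feature Extraction 10.5.1.1, per the submitters' processing notes, with background subtracted and no scaling between arrays, per the file headers. The deposited value table of the series repeats this intensity column. From it, each spot's processed signal was taken to log2 and reduced by the 75th percentile of its array, over 43379 spots (1639 control spots left out). Outlier spots were set to missing and spots of a probe averaged. Probes well above background on at least 3 of 12 liver arrays, 2 of 4 cell arrays or, in the fit of both tissues, 2 of 16 arrays were kept, with the brightest probe per symbol.

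Groups were compared with limma 3.58.1 (lmFit, eBayes, 2-sided) run under R 4.3.3. Adjustment was by Benjamini-Hochberg across all genes of a fit, at a threshold of 0.05. The 12 livers formed 1 fit, the 4 cell samples another, and all 16 a fit across tissues. The limma step alone was tested on simulated data, with planted changes larger than that of any member with time in the liver. Differences within arrays were tested by exact permutation, for stem cells also over both times, a test added after seeing the data.

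The members, gene lists and tests were chosen with earlier results of these data known. Named are up to 10 members past the threshold with the largest change, or the 5 with the smallest p where fewer than 3 passed. Psmb5 to Psmb10 are named throughout, as are up to 6 further pathway genes past the threshold per comparison. Psmg1, Psmg2 and Psmg3 were found under older symbols, and Psmg4 and Paaf1 were not matched. Other settings tried were normexp background correction (offset 50), quantile normalization, a 75th percentile over probes above background, no filter and the mean of probes. Reference names, the deposited value table, array weights, slide as a block, only the groups compared and leaving out arrays were also tried.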

Additional observations from a re-analysis of the deposited data

Results flagged for a closer look

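The stem cell effect on Psmd7, a lid subunit, differed between inflammatory cells and liver at 5 h by -1.66 on the log2 scale. This came from a test of the difference itself, with 1 spread pooled over both tissues (limma, adjusted p = 0.0358). Over the alternatives, the adjusted p ran from 0.00192 without mouse 985 to 0.276 with normexp background correction. The levels behind it were 3.05 and 2.21 without and 0.79 and 0.94 with stem cells in inflammatory cells, and 3.44, 3.26 and 3.11 without and 3.26, 2.99 and 3.24 with them in liver.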

How the results depend on the processing

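Counts of members past the threshold were recomputed under each setting. For inflammatory cells against liver they went from 22 to 8 (normexp background correction), 13 (only the groups compared) and 10 (quantile normalization) without stem cells, and from 33 to 20 (quantile normalization) with them. For the time change without stem cells the count of 1 became 2 with the mean of the probes and 0 with no filter, normexp or only the groups compared, and 0 to 1 when 1 array was left out. With stem cells it became 2 (75th percentile over probes above background, or the mean of the probes) and 4 (array weights), and 1 to 3 when 1 array was left out. Over both treatments 9 became 4 (no filter), 1 (normexp) and 5 (without mice 10 and 13). For stem cells in inflammatory cells 0 became 7 with normexp, and 0 to 2 when 1 array was left out. For the difference of the stem cell effects 1 became 0 with array weights, the mean of the probes, no filter or normexp, and 0 to 14 when 1 array was left out. The share of all genes that passed also moved with the setting and is not given here for each one. These shifts of count are therefore not read as results about the members. Their cause was not tested.

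Signs turned for members near 0, none past the threshold under either setting. With normexp, stem cells against none in liver at 2 h gave -0.29 (Psmb5), -0.27 (Psmb6), -0.36 (Psmb7), -0.30 (Psmc1), -0.23 (Psmd14) and -0.27 (Psmd3), and at 5 h -0.0027 (Psmb7). The difference of these effects between the times became 0.15 (Psma1), 0.30 (Psmb5), 0.32 (Psmb6), 0.16 (Psmd14), 0.18 (Psmd2) and 0.13 (Psmd7) with normexp, 0.0048 (Psmb5) with array weights and -0.0045 (Psmb7) with quantile normalization. The time change of Psmb6 became 0.12 over both treatments and 0.28 with stem cells under normexp. That of Psmb7 became -0.0063, -0.046 and -0.023 without stem cells (75th percentile over probes above background, array weights, quantile normalization), and -0.025 over both treatments and -0.028 with stem cells (quantile normalization). The difference of Psmb10 minus Psmb7 between treated inflammatory cells and liver became 0.42 with quantile normalization.

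Leaving out 1 array gave ranges that cross 0. The time change without stem cells ran from -0.12 to 0.033 for Psmb6 and from -0.018 to 0.17 for Psmb7. The change of the stem cell effect between the times ran from -0.14 to 0.033 for Psmb5, from -0.14 to 0.0060 for Psmb6 and from -0.10 to 0.10 for Psmb7, and the effect on Psmb7 at 5 h from -0.033 to 0.16. Psmb10 minus Psmb7 in inflammatory cells against liver ran from -1.26 to 0.00085 without and from -0.32 to 0.26 with stem cells, and its stem cell value in these cells from -0.16 to 1.11. That of Psmb9 minus Psmb6 ran from -0.16 to 0.039. The stem cell value of Psmb10 minus Psmb7 over both times in liver, in the test added after seeing the data, ran from -0.39 to -0.27 and was -0.43 without mice 10 and 13 (exact p = 0.0833), with the unadjusted exact p above 0.05 there and in 9 of 12 repeats that left out 1 liver.

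Of 197 further values of counts and within-array differences under settings other than leaving out 1 array, 176 kept their side and size. The settings included the deposited value table, which repeats the scanner intensities, so agreement there was fixed in advance. The share of members with CGGAAG before the start alone was 53.6%, against 15.3% of all genes. No paired analysis was possible because the mouse numbers differ between groups, so that numbers pair no samples. The slide, which holds 1 array of each liver group, was used as a block instead, and that fit changed no count of members by over 1.5 times. All members were well above background on all arrays, and the small number of arrays limits precision.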

Other observations

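Genes that make or carry ubiquitin were set against liver in the same inflammatory cells. Rps27a, which encodes ubiquitin fused to a ribosomal protein, was higher than in liver at 5 h by 0.96 ± 0.21 without stem cells and by 0.73 ± 0.21 with them (limma, adjusted p of 0.00168 and 0.00941), while Uba1, the main ubiquitin-activating enzyme, was lower by -0.91 and -1.06. Among the shuttles that bring substrates to the proteasome, Ubqln1 was higher without stem cells (0.58) and Ubqln2 with them (0.86), whereas Sqstm1, the autophagy receptor, was lower in both (-1.72 and -1.46). In all, 1 of 5 ubiquitin genes was higher and 1 lower in each comparison. Of 5 shuttles 1 was higher in each and 1 and 2 were lower. Of all genes, 29.8% were higher and 28.9% lower without stem cells, and 29.5% and 32.4% with them. Of the attached deubiquitinases, Uchl5 was higher without stem cells (0.78) and Usp14 lower with them (-1.05). These genes were chosen for a place on fixed lists and, beyond the number allowed per comparison, for their values.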
